A study of Rattus norvegicus with 4 samples.

Results

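SLC12A2, SLC12A3, SLC12A4 and SLC12A7 are cation chloride cotransporters, and their transcripts were followed through 4 rat RNA-seq libraries. The genes were taken by name, not by level, from the supplementary lists of plasma membrane transporters and pumps that accompany the data. These lists pair 263 of the 32883 gene IDs in the files with a transporter or pump, and 8 of the names begin with SLC12A. Of the 8, the 4 named here are described and the other 4 are not reported here. The highest of them in intact choroid plexus was SLC12A2, with 268 TPM in male and 237 TPM in female rats. TPM is an abundance of transcripts per length, set to 1 fixed total in every library.

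The choroid plexus is the secretory tissue of the brain ventricles that produces most of the cerebrospinal fluid, and its 2 whole-tissue libraries were made from the lateral and the fourth ventricles of untreated Sprague Dawley rats aged 9 weeks. The male choroid plexus library was a pool of 5 male rats and the female choroid plexus library a pool of 5 female rats. The FACS library held cells sorted from collagenase-digested choroid plexus of 10 male rats with an antibody against an extracellular part of NKCC1, the protein that SLC12A2 encodes. The proximal tubule library held kidney tubules from 5 male rats, digested with collagenase and pronase and picked by hand under a microscope. By the methods of the study, these appear to be the males that gave the male choroid plexus pool. All rats were of the same strain and age and received no treatment apart from anaesthesia. Each group was 1 pooled library, so no difference below has a replicate check, no spread between animals can be given, and the intervals quoted cover counting error only.

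Cation chloride cotransporters move Cl- across the cell membrane together with Na+, K+ or both, without net charge and without direct use of ATP. NKCC1 (SLC12A2) carries Na+, K+ and Cl- together and sits in the ventricle-facing membrane of the choroid plexus epithelium, where it is studied for its part in fluid secretion. KCC1 (SLC12A4) and KCC4 (SLC12A7) carry K+ with Cl-, usually out of the cell, and serve in cell volume regulation. NCC (SLC12A3) carries Na+ with Cl- in the distal convoluted tubule of the kidney and is the target of thiazide diuretics. The kinase STK39 (SPAK) phosphorylates the family, which activates the Na+-coupled members and inhibits the K+-Cl- members.

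The promoters of 2 members are shown because the genes differed widely in level: SLC12A4 held between 188 and 229 TPM in the choroid plexus libraries and SLC12A3 between 0.23 and 0.51 TPM. All 4 members were found by symbol in the RefSeq promoter table of build GRCr8, which is a later build than the Rnor_6.0 of the expression files, and no expression value was assigned by these coordinates. Each window covers 300 bases of DNA, most of them before the annotated start of transcription and the rest after it, and is written 5′ to 3′ in the direction of the gene. Capitals mark matches, searched on both strands, to the 6 letters TATAAA, known as a TATA box, or in their place to the letters GGGCGG, known as a GC box.
SLC12A4, chr19:50770073-50770372, minus strand: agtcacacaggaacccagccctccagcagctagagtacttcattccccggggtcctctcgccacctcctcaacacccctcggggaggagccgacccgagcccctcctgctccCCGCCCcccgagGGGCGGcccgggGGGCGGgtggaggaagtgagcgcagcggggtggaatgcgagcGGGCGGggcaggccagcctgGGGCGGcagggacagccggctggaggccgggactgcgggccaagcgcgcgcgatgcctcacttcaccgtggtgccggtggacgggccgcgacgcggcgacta
SLC12A3, chr19:10675001-10675300, minus strand: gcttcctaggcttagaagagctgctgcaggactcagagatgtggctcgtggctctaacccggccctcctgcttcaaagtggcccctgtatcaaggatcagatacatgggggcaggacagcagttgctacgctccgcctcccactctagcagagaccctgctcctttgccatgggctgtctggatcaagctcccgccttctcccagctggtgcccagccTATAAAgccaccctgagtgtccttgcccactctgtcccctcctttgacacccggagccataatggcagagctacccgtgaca

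The SLC12A4 window had 5 GC boxes and no TATA box, and its GC content was 74.0%. The SLC12A3 window had 1 TATA box, starting at position -32 from the annotated start, no GC box and a GC content of 59.0%. The windows of SLC12A2 and SLC12A7 resembled that of SLC12A4, with 3 and 9 GC boxes, no TATA box and GC contents of 80.7% and 71.0%. A TATA box and a GC box share no letters and so cannot overlap each other. Overlapping matches to the same motif would each be counted. Of all 33469 windows of the table, 33.1% held a GC box and 14.2% a TATA box, and the median GC content was 51.7%. These matches describe the letters of the windows only.

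Library facts that bear on all values were few. Expected counts, the estimated numbers of reads per gene, summed to between 23873318 and 28324976 per library. Mitochondrially encoded genes took between 4.32% and 5.34% of them in the 3 choroid plexus libraries and 70.7% in the proximal tubule library, which left 7352952 counts for all other genes. TTR, the transthyretin gene and main epithelial product, held 23.9% of the TPM in male choroid plexus, 28.6% in female choroid plexus and 39.0% in the FACS library, and a larger share for TTR leaves less of the fixed total for the rest. All 12 listed markers of choroid plexus epithelium were above 0 in the 3 choroid plexus libraries, while 7 of them were at 0 in the proximal tubule library. All 10 proximal tubule markers were detected in the proximal tubule library, with a summed 3256 TPM against 20.1 TPM in male choroid plexus. SLC7A13 (2055 TPM) and SLC3A1 (871 TPM) made up most of this sum, and FXYD2 rested on 15 expected counts. SLC5A2 had 6.02 TPM in the proximal tubule against 6.18 TPM in male choroid plexus. With mitochondrially encoded genes removed and TPM rescaled, all 10 were at least 1.5-fold higher in the proximal tubule, beside 14.6% of all genes. The study lists all 10 among the highest transporters and pumps of this same library. Their detection and their higher values therefore do not check what the library holds. Of 2003 named genes at 50 TPM or more in male choroid plexus, 672 were listed at 0 in the proximal tubule library, among them the ubiquitous phosphatase gene PPP1CA. A 0 there is therefore reported only as a listing.

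SLC12A2 (ENSRNOG00000015971) was the highest member in both intact tissues. It stood at 268 TPM from 40184 expected counts in male choroid plexus, 237 TPM from 35014 counts in female choroid plexus, 150 TPM from 23939 counts in FACS cells and 1.52 TPM from 351 counts in proximal tubule. The 3 choroid plexus libraries were thus high and the kidney library low. Its share of all counts was 0.142% in male tissue (95% Wilson interval 0.140 to 0.143%) and 0.00140% in the proximal tubule (0.00126 to 0.00155%). Among the listed transporters and pumps it held place 14 in both whole tissues, place 17 in the FACS library and place 52 of the 106 genes above 0 in the proximal tubule. In male choroid plexus it stood between SLC38A3, an amino acid transporter with 298 TPM, and the Na+/K+-ATPase subunit gene ATP1B2 with 248 TPM.

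SLC12A4 (ENSRNOG00000019651) was the member with the highest value in sorted cells. It had 192 TPM from 16234 expected counts in male choroid plexus, 188 TPM from 15658 counts in female choroid plexus and 229 TPM from 20501 counts in the FACS library, and was listed at 0 in the proximal tubule. The FACS value was thus the highest of the 4 and the whole tissues lay close together below it. Its place among transporters and pumps was 19 in male tissue, 18 in female tissue and 11 in the FACS library. In the FACS library it stood between ATP1B3 (249 TPM), another Na+/K+-ATPase subunit gene, and the thyroxine and organic anion carrier gene SLCO1C1 (216 TPM).

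SLC12A7 (ENSRNOG00000016372) was the third member detected at a substantial level in choroid plexus. It had 42.9 TPM from 4964 expected counts in male tissue, 38.6 TPM from 4387 counts in female tissue and 37.0 TPM from 4531 counts in the FACS library, and was listed at 0 in the proximal tubule. Its 3 choroid plexus values formed a narrow band, at places 57, 56 and 51 among the transporters and pumps. In male choroid plexus, 80.4% of the genes at or above 0.5 TPM were at or below its level, against 97.1% for SLC12A2 and 95.9% for SLC12A4.

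SLC12A3 (ENSRNOG00000057072) was the lowest member in choroid plexus, where its values lay around or below 0.5 TPM, the cut-off from which the study took a gene as transcribed. It had 0.51 TPM from 51 expected counts in male choroid plexus, 0.40 TPM from 39 counts in female choroid plexus, 0.23 TPM from 24 counts in the FACS library and 0.59 TPM from 91 counts in the proximal tubule library. Of these deposited values those of male choroid plexus and proximal tubule passed the cut-off, and the Wilson intervals of its share of counts overlapped between male tissue (0.000137 to 0.000237%) and female tissue (0.000112 to 0.000210%). Its place was 217 of 245 transporters and pumps above 0 in male choroid plexus and 82 of 106 in the proximal tubule. All 4 of its counts lay above the limit of 3 counts taken as detectable.

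**Figure D1:**
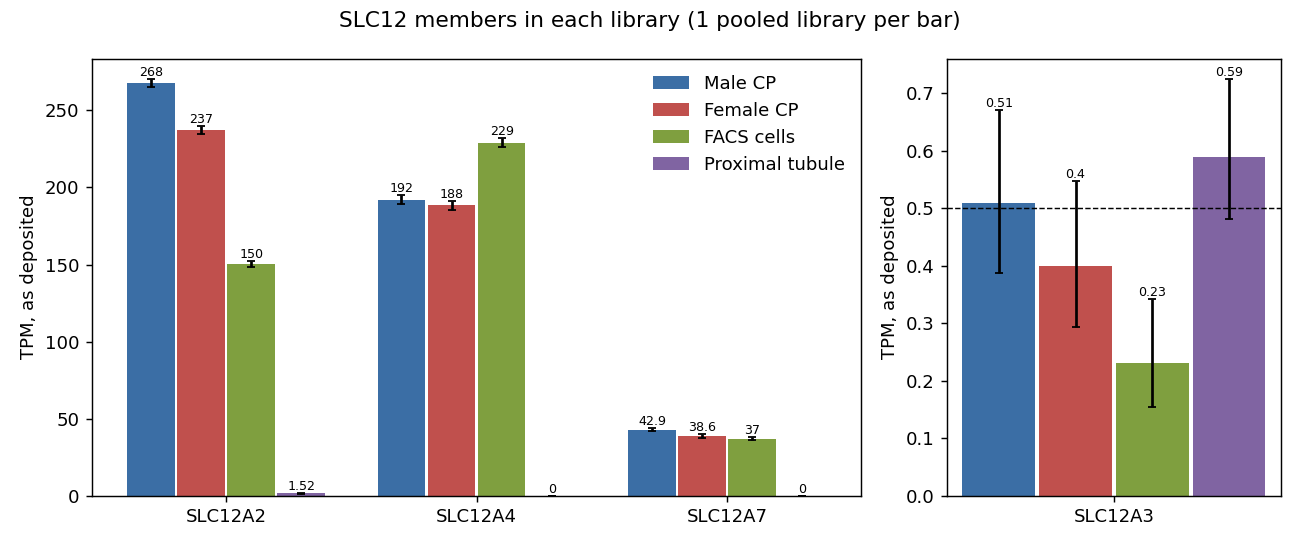
Bars give TPM as deposited for the SLC12 members in male choroid plexus (CP), female choroid plexus, FACS cells and proximal tubule, 1 pooled library per bar, with SLC12A3 on its own scale, and error bars are 95% intervals for counting error. SLC12A2 goes from 268 to 150 TPM between male tissue and FACS cells while SLC12A4 goes from 192 to 229 TPM, and the dashed line marks 0.5 TPM.

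The order of the members by TPM was SLC12A2, SLC12A4, SLC12A7, SLC12A3 in both whole tissues. In the FACS library SLC12A4 came before SLC12A2, with SLC12A7 and SLC12A3 again after them. The counting interval of the ratio between SLC12A2 and SLC12A4 left out 1 in each of these libraries, but whether neighbours in the order differ beyond the variation between animals could not be assessed from single pools. The members summed to 503 TPM in male choroid plexus, 465 TPM in female choroid plexus, 417 TPM in FACS cells and 2.11 TPM in proximal tubule. These sums were 3.06%, 3.15%, 3.27% and 0.0537% of the TPM of all listed transporters and pumps, so that the part of the members within the transporter list was similar in the 3 choroid plexus libraries. Without the 10 highest genes of each library the sum was largest in the FACS library, at 859.5 TPM against 781 and 774 TPM in male and female tissue.

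Because TPM is per length, members can be set against each other inside a library, free of the scaling between libraries. SLC12A2 made up 53.2% of the members' TPM in male tissue, 51.1% in female tissue and 36.1% in the FACS library. SLC12A4 made up 38.2%, 40.6% and 55.0%, and SLC12A7 stayed between 8.30% and 8.87%. The ratio of SLC12A2 to SLC12A4 in TPM was 1.39 in male choroid plexus (exact 95% interval 1.37 to 1.42), 1.26 in female choroid plexus (1.24 to 1.28) and 0.656 in the FACS library (0.644 to 0.669). The Na+-coupled transporter transcript was thus above the K+-Cl- transporter transcript in the intact tissue and below it in the sorted cells. The ratio was 2.12 times lower in the FACS library than in male tissue, 1.92 times lower than in female tissue, and 1.11 times lower in female than in male tissue. In expected counts, which are not per length, it was 2.48, 2.24 and 1.17, so it remained above 1 in all 3 libraries while falling in the same order. The ratio of SLC12A4 to SLC12A7 in TPM was 4.48 (4.34 to 4.62), 4.88 (4.72 to 5.05) and 6.20 (6.003 to 6.404).

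**Figure D2:**
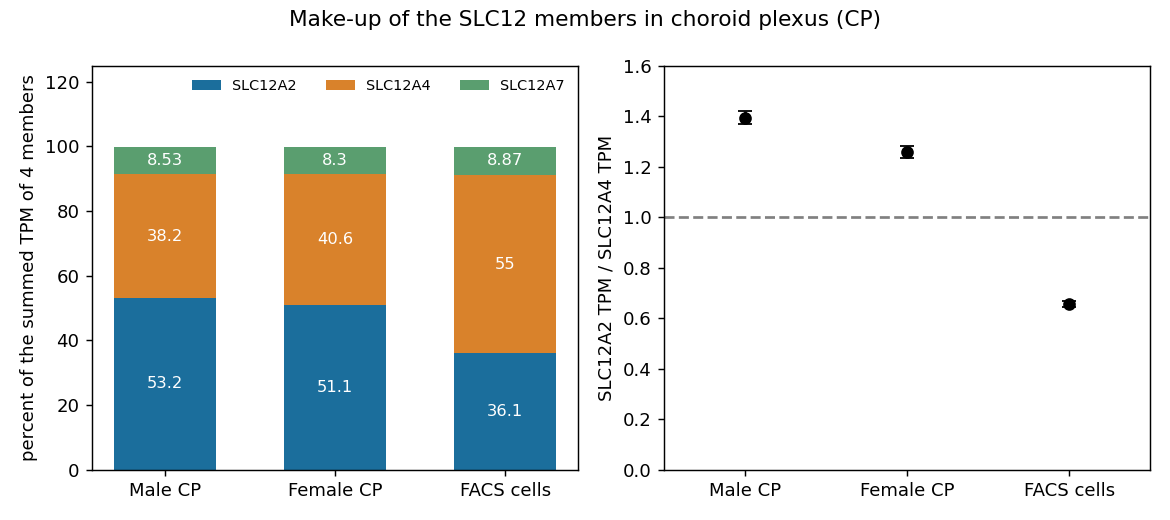
The left panel stacks the percent of the members' summed TPM held by SLC12A2, SLC12A4 and SLC12A7 in male choroid plexus, female choroid plexus and FACS cells (SLC12A3, at most 0.101%, is not drawn), and the right panel gives the ratio of SLC12A2 to SLC12A4 in TPM with its 95% counting interval. The ratio is 1.39 and 1.26 in the whole tissues and 0.656 in FACS cells, across the dashed line at 1, whereas in expected counts it is above 1 in all 3.

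The FACS library of NKCC1-labelled cells was set against the whole tissue of male choroid plexus. Digestion, sorting and animals differed together between these 2 pools, so a ratio does not assign a transcript to the labelled cells. SLC12A2, the transcript of the sorting target, was 1.78 times lower in the FACS library than in the male choroid plexus library, which came from other rats (exact 95% interval 1.75 to 1.81), a log2 ratio of TPM + 1 of -0.83. SLC12A4 was 1.19-fold higher (1.17 to 1.22), a log2 ratio of 0.25. SLC12A7 had 0.862 of its male level (0.828 to 0.897) and SLC12A3 0.451 (0.265 to 0.746), log2 ratios of -0.21 and -0.30. The 1.5-fold limit was passed by SLC12A2 downwards and by no member upwards, counted on the log2 scale with its pseudocount of 1, which understates the difference of a gene as low as SLC12A3.

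The whole transcriptome was shifted the same way. Of 14024 genes at or above 0.5 TPM in either library, 49.8% were at least 1.5-fold lower and 8.5% at least 1.5-fold higher in the FACS library, and the median log2 ratio was -0.58. The median of the 4 members was -0.25. It includes the ratio of SLC12A3, which the pseudocount of 1 makes small, so it is not set against the median of all genes. Relative to the median of all genes SLC12A2 lay at -0.25, SLC12A7 at 0.37 and SLC12A4 at 0.84, and 35.2%, 69.4% and 85.6% of all genes had lower ratios. SLC12A3 had passed the cut-off only through the male library, where it was higher. The 0.29 at which it lay above the median rests on the pseudocount of 1. With a pseudocount of 0.1 its log2 ratio was -0.89, so its place against the median is not read. In a bulk library, fewer cells of a type and less RNA of a gene per cell cannot be told apart.

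The ratios were also read beside transcript length. SLC12A2 was the longest member, with an effective length of 6129 bases against 3452 bases for SLC12A4, 4724 for SLC12A7 and 4100 for SLC12A3. Among the 375 genes whose effective length was within 10% of that of SLC12A2, the median log2 ratio of FACS to male tissue was -0.84, and SLC12A2 minus this median was 0.01. The lower SLC12A2 value was therefore the size of the median difference of genes of like length. For SLC12A4 the median of 1151 genes of like length was -0.65, which left 0.91, and for SLC12A7 the median of 669 genes was -0.69, which left 0.48. For SLC12A3 the median of 935 genes was -0.72, and the 0.42 left rests on the pseudocount of 1 and is not read. The medians did not follow length at each step, that around SLC12A3 being lower than that around the longer SLC12A7. SLC12A4 was thus higher in the FACS library under every scaling tried, SLC12A2 was lower except against genes of like length, and SLC12A7 was lower in TPM but higher once the median was taken off, the 10 highest genes were removed or expected counts scaled to the library total were used. The part of length in these ratios was not tested further.

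**Figure D3:**
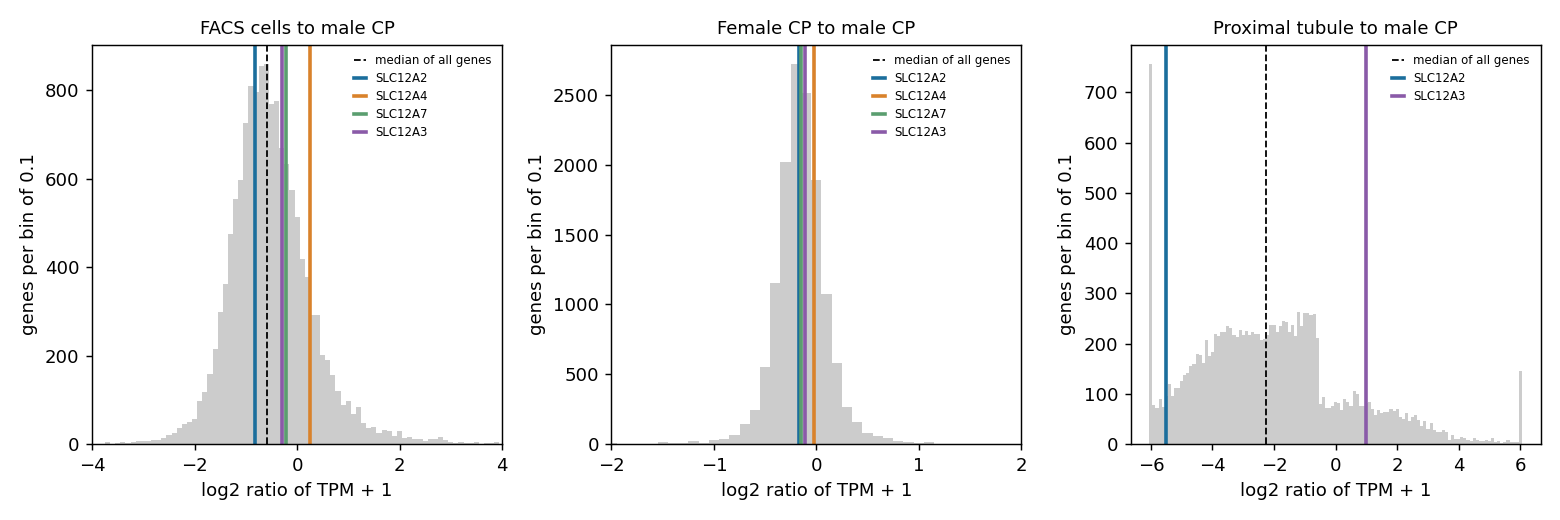
Grey bars count genes by log2 ratio of TPM + 1 in bins of 0.1 for FACS cells, female choroid plexus and proximal tubule, each against male choroid plexus (CP), with coloured lines for the SLC12 members and a dashed line for the median of all genes, and in the right panel ratios beyond 6 in size are gathered in the end bars and members listed at 0 are not drawn. In the left panel SLC12A2 (-0.83) lies below and SLC12A4 (0.25) above the median of -0.58, in the middle panel the members sit around the median of -0.16, and in the right panel SLC12A2 is at -5.51 and SLC12A3 at 1.001, although against genes of like length SLC12A2 is at 0.01 in the left panel and at 0.10 in the middle panel.

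With female in place of male tissue, a comparison added after seeing the data that shares the FACS library with the one above, SLC12A2 had 0.634 of the female level in the FACS cells, SLC12A7 0.958 and SLC12A4 1.22 times the female level. The log2 ratios were -0.65, -0.06 and 0.28, beside a median of -0.46 over 13948 genes. SLC12A2 alone passed the 1.5-fold limit, downwards, where 41.7% of all genes were that much lower and 9.97% that much higher. SLC12A3 was below 0.5 TPM in both libraries and was not compared.

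Markers of other cells were measured beside these ratios. The 3 immune markers with a name of 10 listed, CD74, CSF1R and CX3CR1, summed to 369 TPM in male tissue, 224 TPM in female tissue and 2646 TPM in the FACS library, where CD74 alone had 2556 TPM. The 5 endothelial markers of 11 listed summed to 171, 145 and 254 TPM, of which PLVAP held 105, 90.9 and 178 TPM. PLVAP was the 1 of the 5 at least 1.5-fold higher in the FACS library than in male tissue, and 0 were that much lower. The 4 mesenchymal and mural markers of 10 listed summed to 346, 263 and 379 TPM. The last sum was carried by DCN, the decorin gene, with 102 TPM in male tissue and 239 TPM in the FACS library, while PDGFRA (83.4 and 49.3 TPM) and RGS5 (140.4 and 67.5 TPM) were at least 1.5-fold lower there. None of these 12 markers was at 0 in any choroid plexus library. The 12 epithelial markers summed to 253929, 299116 and 399121 TPM, almost all of it TTR, while 8 of the 12 were at least 1.5-fold lower and 1 at least 1.5-fold higher in the FACS library than in male tissue. Over all genes 49.8% were that much lower and 8.5% that much higher, which holds beside the single markers above as well. The part of other cells in the SLC12 ratios was not tested.

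Female choroid plexus was set against male choroid plexus to look for differences by sex. SLC12A2 had 0.887 of its male level (exact 95% interval 0.874 to 0.900), SLC12A7 0.900 (0.864 to 0.937), SLC12A4 0.982 (0.961 to 1.004) and SLC12A3 0.784 (0.503 to 1.21). None of the 4 members passed the 1.5-fold limit in either direction, where 1.36% of 13869 genes were that much higher and 3.89% that much lower. The log2 ratios were -0.17 for SLC12A2, -0.15 for SLC12A7, -0.03 for SLC12A4 and -0.11 for SLC12A3, beside a median of -0.16 for all genes, and SLC12A3 had again passed the cut-off only through the male library. SLC12A2 and SLC12A7 lay within 0.02 of the median of all genes, and SLC12A4 lay 0.13 above it. Against genes of like length SLC12A2 and SLC12A7 were slightly higher in the female library, by 0.10, and SLC12A4 by 0.17, so the sign of these small differences depended on the scale. The 0.12 for SLC12A3 on that scale rests on the pseudocount of 1. With a pseudocount of 0.1 its log2 ratio was -0.29, so its place against other genes is not read. With 1 pool per sex, sex and pool cannot be told apart.

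The proximal tubule, another epithelium that moves large volumes of fluid, was compared with male choroid plexus after the 13 mitochondrially encoded genes were removed and the TPM rescaled. SLC12A2 had 5.45 TPM on this scale in the proximal tubule and 292 TPM in male choroid plexus, which was 53.6 times lower, or 0.0187 of the male level (exact 95% interval 0.0168 to 0.0207). SLC12A3 had 2.12 TPM against 0.557 TPM, 3.80-fold higher (2.67 to 5.47). With the mitochondrially encoded genes kept, the SLC12A3 values were 0.59 and 0.51 TPM and the log2 ratio was 0.07 in place of 1.001. SLC12A4 and SLC12A7 were listed at 0 in the proximal tubule, with 209 and 46.8 TPM on the rescaled scale in male choroid plexus, and no fold is given for them. Of the 2 members with counts in both libraries SLC12A3 passed the 1.5-fold limit upwards and SLC12A2 downwards. Over all 14227 genes 14.6% were that much higher and 78.7% that much lower, genes listed at 0 included, and no median is given for the members.

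SLC12A3 is known from the nephron beyond the proximal tubule, and markers of that part were measured in the same library. The 4 of 8 such markers with a name summed to 28.2 TPM in the proximal tubule library and to between 0.20 and 0.73 TPM in the choroid plexus libraries. The K+ channel gene KCNJ1 (ROMK) made up most of this, with 24.9 TPM from 1646 expected counts in the proximal tubule and 0 counts in male choroid plexus. AQP3 had 2.87 TPM in the proximal tubule and 0 in male choroid plexus, and TRPM6 had 0.40 and 0.10 TPM. SCNN1A went the other way, with 0 counts in the proximal tubule and 0.33 TPM in male choroid plexus. The part of these markers in the SLC12A3 value was not tested.

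Of 14 listed regulators of these cotransporters, 7 had a gene name in the lists at hand. STK39, the kinase that phosphorylates them, had 320 TPM in male choroid plexus, 282 TPM in female choroid plexus, 122 TPM in the FACS library and was listed at 0 in the proximal tubule. CAB39L and CAB39, scaffold proteins that raise the activity of STK39, had 483 and 82.5 TPM in male tissue, 389.8 and 64.9 TPM in female tissue, and 145 and 35.4 TPM in the FACS library. For all 3 genes male tissue was highest, female tissue next and the sorted cells lowest. SGK1, an aldosterone-induced kinase, went from 134 TPM in male tissue to 103.1 TPM in female tissue and 66.8 TPM in the FACS library. The catalytic subunits of protein phosphatase 1, which removes the activating phosphate groups from NKCC1, had 136 (PPP1CA), 86.0 (PPP1CB) and 105 TPM (PPP1CC) in male tissue and 98.6, 35.9 and 59.0 TPM in the FACS library.

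In the FACS library 6 of the 7 regulators, all but PPP1CA, were at least 1.5-fold lower than in male tissue, with a median log2 ratio of -1.20 beside -0.58 for all genes, of which 49.8% were that much lower. CAB39L differed most, 3.32 times lower, followed by STK39, 2.62 times lower. Set against its kinase inside each library, SLC12A2 had 0.836 of the TPM of STK39 in male tissue, 0.842 in female tissue and 1.23 times its TPM in the FACS library. Between female and male tissue 0 of the 7 regulators passed the limit, beside 3.89% of all genes lower and 1.36% higher, and their median log2 ratio was -0.18. In the proximal tubule STK39 and PPP1CA were listed at 0, 4 of the other 5 were at least 1.5-fold lower than in male choroid plexus, beside 78.7% of all genes, and PPP1CB did not pass the limit, with 65.1 against 93.9 TPM on the rescaled scale.

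A list of 18 further genes of Na+, K+, Cl- and water transport gave the company in which the members work. In male choroid plexus 15 of them were at or above 0.5 TPM. SLC4A2 (AE2), which brings Cl- into the epithelium in exchange for HCO3-, had 638, 592 and 642 TPM in male, female and FACS libraries. The HCO3- transporter genes SLC4A5 and SLC4A10 had 881 and 325 TPM in male tissue and 314 and 108 TPM in the FACS library, 2.81 and 3.02 times lower. KCNJ13, a K+ channel of the ventricle-facing membrane, went from 1372 to 685 TPM, and the Cl-/H+ exchanger gene CLCN3 from 33.8 to 12.7 TPM. AQP1, the water channel, had 721 and 687 TPM, and the Na+/K+-ATPase subunit genes ATP1B1, ATP1B2 and ATP1B3 had 1553, 248 and 236 TPM in male tissue and 1089, 146 and 249 TPM in the FACS library, of which ATP1B2 was past the 1.5-fold limit.

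Of the 15 partners tested between FACS and male libraries, 7 were at least 1.5-fold lower and 0 at least 1.5-fold higher, with a median log2 ratio of -0.51, close to all genes with their 49.8% lower, 8.5% higher and median of -0.58. SLC4A2 stood at 0.01, between SLC12A7 and SLC12A4, while SLC4A10 (-1.58) and SLC4A5 (-1.49) stood below SLC12A2. Between female and male tissue 0 of the 15 passed the limit, beside 3.89% of all genes lower and 1.36% higher, with a median of -0.18. In the proximal tubule 10 of the 18 were listed at 0, and 5 of the other 8 were at least 1.5-fold lower than in male choroid plexus, beside 78.7% of all genes. The 3 that were at least 1.5-fold higher, beside 14.6% of all genes, were FXYD2, KCNJ1 and CFTR, each with 0 expected counts in male choroid plexus. In the proximal tubule FXYD2 rested on 15 expected counts, although its rescaled value was 357 TPM, whereas KCNJ1 had 1646 counts and CFTR 275.

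**Figure D4:**
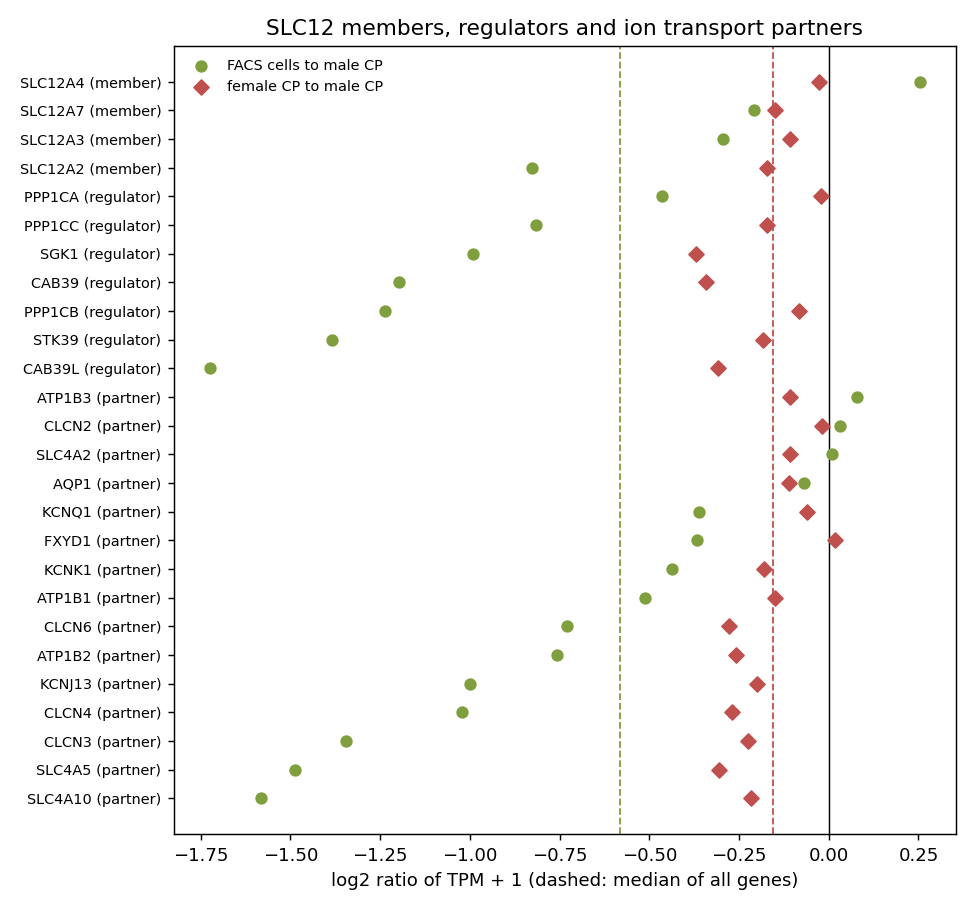
Points give the log2 ratio of TPM + 1 of FACS cells (circles) and of female choroid plexus (diamonds) to male choroid plexus (CP) for the 4 SLC12 members, 7 regulators and 15 ion transport partners, with dashed lines at the medians of all genes (-0.58 and -0.16). SLC12A4 stands at 0.25 and SLC12A2 at -0.83 for the FACS cells (0.01 against genes of like length), the regulators lie between -0.46 and -1.73, and the diamonds of all groups lie between -0.37 and 0.02.

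Other transporters whose profile over the 4 libraries was most like that of a member were found among 160 listed genes at 5 TPM or more in some library, by the root mean square difference of log2(TPM + 1) after each gene was centred on its own mean. For SLC12A2 these were SLC23A2 (difference 0.0915), an ascorbate transporter gene with 126, 102, 66.7 and 0 TPM in male, female, FACS and proximal tubule libraries, followed by SLC2A12 (0.104) and SLC24A4 (0.109). For SLC12A4 they were the phosphate transporter gene SLC20A2 (0.187), with 182, 158, 163 and 0 TPM, SLC38A3 (0.192) and ABCA2 (0.294). For SLC12A7 they were the thiamine transporter gene SLC19A2 (0.0696), with 47.8, 41.5, 36.6 and 0 TPM, MFSD5 (0.0901) and SLC7A10 (0.116). The smallest difference was larger for SLC12A4 than for SLC12A2 or SLC12A7. For genes at or near 0 in the proximal tubule, the difference also follows the gap in choroid plexus level. It is therefore not a measure of profile alone, and a 0 in that library is only a listing. In TPM SLC20A2 was lower in the FACS library than in male tissue, where SLC12A4 was higher. Of the 9 genes named, 8 were listed at 0 in the proximal tubule, SLC38A3 (0.49 TPM) being the exception.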

How the data were processed

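RNA was sequenced from 4 pooled rat samples, 1 library each, prepared by the same company with the same kit. The authors used the Rnor_6.0 genome with Ensembl release 103 for alignment (STAR, version 2.7.2a) and deposited, from RSEM 1.3.3, an expected count, a TPM, an FPKM and an effective length for each gene. The deposited expected counts are estimates of reads, the deposited TPM is per length and sums to 1000000, and the deposited FPKM was left aside. Strandedness was not given in the sources used here, so reads of overlapping antisense genes could be shared.

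Names came from the supplementary lists (2452 of 32883 IDs). The members were taken by name, and the members and all gene lists were chosen with earlier results of these data known. With 1 library per group no test was run. Ratios are log2 of TPM with a pseudocount of 1, over genes at or above 0.5 TPM in either library, and a 1.5-fold limit was used. The comparison with kidney used TPM rescaled after removal of 13 mitochondrially encoded genes. Shares carry Wilson intervals and ratios exact (Clopper-Pearson, conditional) intervals at 95%, with 3 counts as the floor, at most 1.26e-05% of a library. The named genes were the 4 members, the regulators and partners of fixed lists, and the 3 genes most like each of the 3 abundant members. Some genes that meet the rules are not reported here and were left out of the lists. Alternatives were other pseudocounts, cut-offs, folds and scales. Python 3.11.15, numpy 2.4.6, pandas 2.3.3, scipy 1.17.1 and matplotlib 3.10.9 were used, and the steps were tested on simulated data.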

Additional observations from a re-analysis of the deposited data

How the results depend on the processing

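The SLC12 values rest on 1 library per group, so depth sets counting error but no alternative can show the variation between animals. No paired analysis was possible because each group has 1 library and no result comes from a test. In the FACS library SLC12A4 kept its sign in all 8 alternatives, 1 of which had female in place of male tissue, SLC12A2 in 7 of 8 and SLC12A7 in 4 of 8. The cause of the differences between scales was not tested.

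For SLC12A2, FACS to male, the log2 ratio of -0.83 became -0.86 with mitochondrially encoded genes removed, -0.42 with the 10 highest genes of each library removed, -0.50 in expected counts scaled to the library total, -0.25 after subtraction of the median of all genes and 0.0087 after subtraction of the median of genes of similar length, and -0.65 with the female in place of the male tissue, the last pair of choices having been made after seeing the data. For SLC12A4 the ratio of 0.25 became 0.22, 0.66, 0.58, 0.84 and 0.91 under the first 5 of these. SLC12A7 moved from -0.21 to 0.19 without the 10 highest genes, 0.11 in expected counts scaled to the library total, 0.37 and 0.48 after the subtractions. Female to male, the same 5 gave -0.20, -0.074, -0.040, -0.017 and 0.10 for SLC12A2, and -0.058, 0.073, 0.11, 0.13 and 0.17 for SLC12A4. Proximal tubule to male, SLC12A2 at -5.51 became -5.72 with a pseudocount of 0.1, -6.74 with mitochondrially encoded genes kept and -5.82 without the 10 highest genes. It became -4.94 in expected counts scaled to the total left without mitochondrially encoded genes, and -3.23 and -2.86 after subtraction of the medians of all genes and of genes of similar length.

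The ratio of SLC12A2 to SLC12A4 in expected counts was 2.48, 2.24 and 1.17 in male, female and FACS libraries. The summed TPM of the members was 549, 496, 444 and 7.57 in male, female, FACS and proximal tubule libraries without mitochondrially encoded genes, and 781, 774, 859.5 and 7.27 without the 10 highest genes, which put the FACS sum above the others. By the TPM as deposited, mitochondrially encoded genes included, 1 member reached 1 TPM in the proximal tubule and 0 reached 5 TPM, whereas on the rescaled values SLC12A2 had 5.45 and SLC12A3 2.12 TPM, and SLC12A2 had place 31 among the male list alone. With a fold of 2, 4.61% of genes were higher and 25.5% lower in the FACS library than in male tissue, and 0.44% higher and 0.959% lower in female than in male tissue. Among genes at 5 TPM or more, 0.714% were higher in female tissue.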

Other observations

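Set against female in place of male tissue, 6 of the 7 regulators were again at least 1.5-fold lower in the FACS library, with a median log2 ratio of -0.86, and of the ion transport partners 5 of 15 were lower and 0 higher, with a median of -0.38. Over all genes 41.7% were that much lower and 9.97% that much higher, with a median of -0.46. These values share the FACS library with the comparison to male tissue.

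SGK1, CAB39 and CAB39L had the lowest female to male log2 ratios of the 7 regulators, at -0.37, -0.34 and -0.31, beside a median of -0.16 over all genes, and 14.8%, 17.8% and 22.4% of all genes lay below them. PPP1CA, at -0.02, was the highest.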
